A study of Mus musculus with 2 samples.

Results

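Of the 3153 peaks that anti-FLAG chromatin immunoprecipitation gave for FLAG-tagged HLF in mouse blood progenitors, 342 (10.8%) lay at an end of a protein-coding gene. A peak was taken when its centre was at most 1000 bases from the start or the end coordinate of a coding gene in the RefSeq annotation of mm10 (GRCm38.p6). The peaks came from wild-type Lin-Sca-1+c-Kit+ (LSK) cells, the bone marrow fraction that holds stem and multipotent progenitor cells. They had received a retrovirus carrying 3xFLAG-Hlf and GFP, or in the control arm GFP alone, and were then kept for 5 days in medium with IL-3, IL-7, SCF and Flt3L. HLF was therefore expressed from a virus and found through its tag, and how its amount compares with the cell's own HLF was not measured here. Each arm had 1 library, and only the FLAG-HLF list was analysed, so nothing here could be checked in a replicate. Peaks in the GFP arm were not analysed here. The list gives intervals of 400 bases without heights or read counts, so the depth is unknown and no peak can be called stronger than another. No expression was measured, and the labelled cell type could not be checked against markers.

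HLF is a PAR bZIP factor: a leucine zipper pairs it with a partner, and the basic regions of the pair grip a short palindrome in DNA. DBP and TEF are its closest relatives, NFIL3 represses from the same palindrome, and the C/EBP factors, which direct myeloid and fat cell genes, read closely related words. Promoters, the stretches just before gene starts, are where the transcription machinery assembles, and many in mammals are rich in CpG.

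The sequences under these peaks could be read where RefSeq promoter windows were given. A window runs from 250 bases before to 50 bases after a listed start, 300 bases in all, and 145 windows of 134 genes were overlapped by 129 of the 342 peaks. The other 213 peaks overlapped none, and their sequence was not used here. The lines that follow show 10 matches to words that bZIP factors bind, 9 of them at most 6 bases from a peak centre and the last, at Eola1, the sole copy of the PAR bZIP palindrome. Apart from Eola1, Ctsl and Gstt1 they were chosen after their positions were seen. Paqr7, Baz1b and Pbld2, which are not shown, had a word 2, 3 and 4 bases from the centre. They are RefSeq sequence of GRCm38.p6 (mm10), written 5′ to 3′ on the strand named, and the capitals mark the matched word.
Ccp110 (chr7:118712421-118712450, plus strand): gtgcatctcgaTTGCGTAAagctcatgtaa
Txndc5 (chr13:38528848-38528877, plus strand): ggggtttgctcTTGCATAAgtcagattctt
Clec12a (chr6:129350093-129350122, plus strand): gtaggagcaaaTTGCGCAActcgtatgaag
Gstt1 (chr10:75797752-75797781, minus strand): aaatgaaagtgTTGCATAAtgggctgtggc
Cep295 (chr9:15357896-15357925, plus strand): gcacgcgcagcTTGCGCAAcgggccattat
Ctsl (chr13:64370616-64370645, plus strand): agggtggagagTTGCATAAcccgtggtttc
Jmjd8 (chr17:25829006-25829035, minus strand): tctgtcgacacTTGCGTAAccacaagccat
Nlrc4 (chr17:74459155-74459184, minus strand): ttgctacgtaaTTATGTAAataccccgatt
Man1b1 (chr2:25332693-25332722, plus strand): gggttctgagcTTGCGCAAcgaccgataag
Eola1 (chrX:70385868-70385897, plus strand): ggtgtgcgtgcTTACGTAAattgtgtaagt
In the first 9 the middle of the word lay at most 6 bases from the middle of the peak. It fell on the very centre at Ccp110, which encodes a protein that caps centrioles, and at Txndc5, a disulfide isomerase of the endoplasmic reticulum. At Clec12a, an inhibitory lectin receptor of myeloid cells, and at Gstt1, a glutathione transferase, it was 1 base away. At Cep295, a centriole protein, and Ctsl, the lysosomal protease cathepsin L, it was 2 bases away. Jmjd8 and Nlrc4, a sensor adaptor of the inflammasome, had it at 4 bases and Man1b1, a mannosidase of glycoprotein quality control, at 6. At Eola1 the palindrome was 26 bases from the centre.

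Longer stretches show what surrounds these words in 4 promoters. Each was cut to the bases of the promoter window that lay under the peak and outside every gene of the annotation. They were chosen after the matches were seen, and the capitals again mark the matched words.
Ccp110 (chr7:118712293-118712514, plus strand): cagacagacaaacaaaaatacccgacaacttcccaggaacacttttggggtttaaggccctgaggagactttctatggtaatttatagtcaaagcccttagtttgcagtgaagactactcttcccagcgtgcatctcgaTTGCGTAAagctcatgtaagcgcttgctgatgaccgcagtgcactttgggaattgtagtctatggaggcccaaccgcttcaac
Nlrc4 (chr17:74459145-74459358, minus strand): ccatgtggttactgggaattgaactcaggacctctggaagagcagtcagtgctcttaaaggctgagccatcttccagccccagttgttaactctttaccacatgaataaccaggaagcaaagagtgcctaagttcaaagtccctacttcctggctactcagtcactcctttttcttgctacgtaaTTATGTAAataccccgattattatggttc
Mpc2 (chr1:165461010-165461259, plus strand): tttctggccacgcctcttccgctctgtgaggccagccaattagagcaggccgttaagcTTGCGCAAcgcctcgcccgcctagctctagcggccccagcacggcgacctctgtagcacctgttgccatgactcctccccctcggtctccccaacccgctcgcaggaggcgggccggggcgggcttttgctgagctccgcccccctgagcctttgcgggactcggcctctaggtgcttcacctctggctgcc
Eola1 (chrX:70385835-70385912, plus strand): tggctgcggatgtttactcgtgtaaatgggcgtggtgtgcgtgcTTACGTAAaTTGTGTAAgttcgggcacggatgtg
Mpc2, which encodes a subunit of the mitochondrial pyruvate carrier, shares its peak with the start of Dcaf6 on the opposite strand. Its word TTGCGCAA was 21 bases from the peak centre, in a stretch with many CpG. In the Eola1 stretch, TTACGTAA was followed after 1 base by TTGTGTAA.

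The start of a gene, not its stop, was the usual place of these peaks. The promoter windows gave the strand for 17492 of the 21887 coding genes on placed chromosomes, and for 279 of the 342 peaks the nearest end could thus be named. It was a start for 232 peaks and a stop for 47, so starts were 83.2% (95% exact Clopper-Pearson interval 78.2 to 87.4%), and the two-sided exact binomial test against equal shares gave p = 1.43e-30. For the other 63 peaks the strand was not given. With all 63 counted as stops, starts would still be 67.8% (exact binomial p = 3.77e-11). This p and those below treat peaks of 1 list as independent, and they say nothing about repeat experiments. The exons, introns and UTRs of these genes were not used here.

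Peaks also sat closer to starts than to stops. The median distance of the centre from the end was 300.5 bases for starts and 517 bases for stops. Within 100 bases lay 53 of the 232 start peaks and 0 of the 47 stop peaks, and within 250 bases 105 and 8. Of the stop peaks, 1 was also within 1 kb of a listed start of some coding gene. So were 213 of the 232 start peaks and 6 of the 63 peaks without strand. The remaining start peaks were named by the outermost bound of the gene alone. The peaks without strand lay between, with a median of 370 bases and 13 of 63 within 100 bases. Over all 342 peaks the distances ran from 3 to 988 bases with a median of 339.5. Inside and outside are counted from the outermost bounds of the gene, so a peak before an inner listed start counts as inside. The Gstt1 peak, for example, was 819 bases inside, and its central word was 35.5 bases before a listed start. Among start peaks 128 were centred upstream of the gene and 104 inside it. Over all ends 183 were outside and 159 inside the gene of the nearest end, or 53.5% outside (two-sided exact binomial p = 0.214), so a preference for either side did not pass the test at this limit. Of the 183, 16 lay inside another coding gene.

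**Figure D1:**
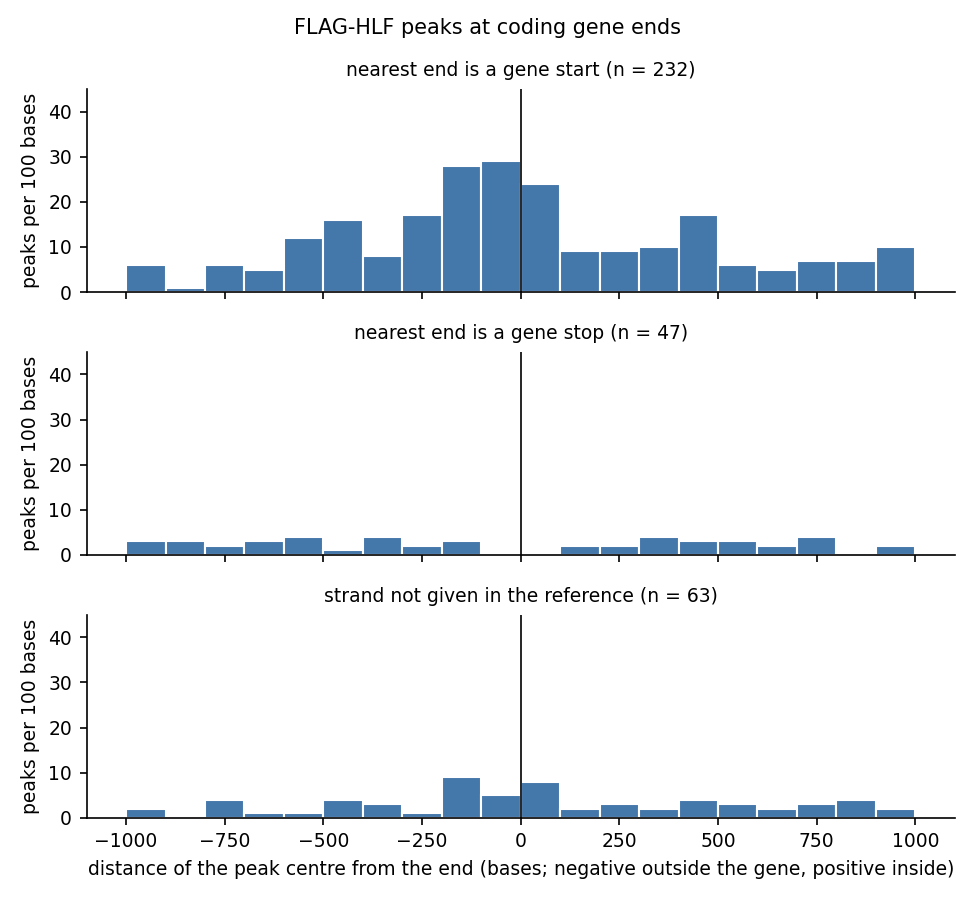
Number of peaks per 100 bases (y axis) by the distance of the peak centre from the nearest coding gene end in bases (x axis, negative outside the gene and positive inside), for 232 start peaks, 47 stop peaks and 63 peaks of genes without strand. The start panel peaks around 0, with 53 peaks within 100 bases, while the stop panel holds 0 there.

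The nearest peaks were centred almost on a gene end. Centres lay 3 bases from an end at Atf3, Irak3, Krt83 and Pi16. Atf3 encodes a bZIP factor induced by stress (peak chr1:191183131-191183530), Irak3 a brake on Toll-like receptor signalling (chr10:120201934-120202333), Krt83 a hair keratin and Pi16 a peptidase inhibitor. Id1, an inhibitor of bHLH factors, followed at 9 bases, Eif5a, a translation factor, at 10, Ptcd1, a mitochondrial RNA-binding protein, at 14, Srrm3, a splicing factor of neurons, at 15 and Irf2bp1, a partner of IRF2, at 16. For 7 of these 9 the end was a start. For Krt83 and Id1 the strand was not given. At the limit itself, Epha10, S100a13 and Eif4a1 were just inside at 983, 988 and 988 bases, and peaks near Macir, Ttc33 and Fbxo31 were just outside at 1005, 1009 and 1011 bases.

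A coding gene rarely had more than 1 such peak. The 342 peaks reached 378 coding genes, or 1.73% of the 21887, and 373 of these had a single peak. The 5 genes with 2 were Irak3, Ccl9, Psme1, Casc1 and Etfrf1. Irak3 had 1 peak at each end, 3 bases before its start and 307 bases beyond its stop, and no other gene had that arrangement. Ccl9, a chemokine of myeloid cells, had peaks 46 bases inside and 665 bases upstream of its start. Psme1, a subunit of the proteasome activator PA28, had them 597 bases inside and 455 bases upstream. Casc1 and Etfrf1, which are neighbours, shared both of their peaks. Their first peak was 31 bases inside Casc1 and 148 bases upstream of Etfrf1, and their second 904 bases upstream of Casc1 and 787 bases inside Etfrf1. A further peak of the list lay inside 37 of the 378 genes, and one inside or within 10 kb of 57.

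Some peaks lay near a pair of starts. There were 41 peaks within 1 kb of ends of 2 coding genes, and 22 of them were within 1 kb of 2 starts. In all 22 the genes were on opposite strands. By the sum of the distances from the peak centre to both starts, the smallest was that of Ids and Eola1 on chromosome X, whose shared peak (chrX:70385657-70386056) was 22 bases from one start and 57 from the other. Ids encodes a lysosomal sulfatase. The peak of Ptcd1 and Cpsf4, a factor of mRNA 3′ end formation, was 14 and 123 bases from their starts. Tmem198 and Chpf, a chondroitin polymerase, followed at 39 and 100 bases, and Casc1 and Etfrf1 at 31 and 148. Ddias and Prcp, a lysosomal peptidase, were at 97 and 239 bases and Mpc2 and Dcaf6 at 168 and 186. Mphosph10, a protein of ribosome assembly, and Mcee were at 49 and 337, Yars, the tyrosyl-tRNA synthetase, and S100pbp at 172 and 241, Lpin1, a phosphatidate phosphatase, and Ntsr2, a neurotensin receptor, at 226 and 234, and Pbld2 and Hnrnph3, a splicing factor, at 273 and 346. Which gene of a pair responds to HLF, if either does, was not measured here.

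Words of the bZIP family were more frequent in the overlapped promoter windows than in promoters at large. All 22 motifs were searched as plain letters on both strands. The 5 bZIP words were the PAR bZIP palindrome TTACGTAA, its variant TTATGTAA, the C/EBP palindrome TTGCGCAA, the hybrid of both TTGCGTAA and the C/EBP variant TTGCATAA. At least 1 of them stood in 30 of the 145 overlapped windows (20.7%, 95% exact interval 14.4 to 28.2%), against 464 of all 21263 coding windows (2.18%, 1.99 to 2.39%). These are counts of letters, given without a test, and a match is not shown to be a bound site. The hybrid TTGCGTAA was the most frequent of the 5, in 10 windows (6.90%) against 0.202% of all, a ratio of 34.2. TTGCGCAA was in 3.45% against 0.221%, TTATGTAA in 6.21% against 0.894% and TTGCATAA in 5.52% against 0.790%. The palindrome TTACGTAA itself was in 1 window, 0.690% with an interval from 0.0175 to 3.78%, which includes the 0.136% of all windows. With at most 1 mismatch to it, 20.7% of the overlapped windows had a match against 3.82% of all, a set that includes TTATGTAA and TTGCGTAA.

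A further word of the same kind, TTGTGTAA, was noticed after the data had been seen. It was in 17 overlapped windows (11.7%, 6.98 to 18.1%) against 0.625% of all, so it was in more of them than any of the 5. Some sites were counted in more than 1 window, and the interval treats windows as independent. The 17 windows held 14 matches at 13 peaks, next to 10 matches at 10 peaks for TTGCGTAA. With it, 31.7% of the overlapped windows had a bZIP word. It is shown in 6 promoters with the word in capitals. They were picked after the matches were seen, at genes named elsewhere here and at Ccl3, and Tarm1 and Pdss1, which are not shown, had it 3 and 8 bases from the centre. They too are RefSeq sequence of GRCm38.p6 (mm10).
Cpsf4 (chr5:145167075-145167104, plus strand): gtcgccgcctcTTGTGTAAgatacagaacc
Casc1 (chr6:145210969-145210998, minus strand): ggaagtgtggcTTGTGTAAccagtctacga
Blnk (chr19:40994299-40994328, plus strand): attactgtgcgTTGTGTAAacttcggtagt
Eif5a (chr11:69921962-69921991, minus strand): tagcgcacaagTTGTGTAAagtaccgaagc
Ccl3 (chr11:83649460-83649489, minus strand): tggaccctgggTTGTGTAAtatccatcatg
Meis1 (chr11:19018997-19019026, minus strand): agcccaatgcaTTGTGTAAgacgcgacctg
Blnk encodes an adaptor of the B cell receptor, Ccl3 a chemokine of macrophages and Meis1 a homeobox factor of stem cells. The word was 1 base from the peak centre at Cpsf4, 3 at Casc1, 7 at Blnk, 8 at Eif5a, 12 at Ccl3 and 14 at Meis1. The Meis1 peak was 654 bases inside the outermost start of the gene, and its window belongs to another listed start. Ccl3, Tarm1 and Pdss1 were named after their values were seen.

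Most words read by other factors differed less in frequency. CRE (TGACGTCA), a word of CREB and ATF factors that shares the core of the PAR palindrome, was in 4.83% of overlapped windows against 2.23% of all. The E-box CACGTG was in 13.1% against 7.84%, the ETS word CCGGAAG in 15.9% against 11.6% and the NRF1 word GCGCATGC in 6.21% against 3.52%. The GC box GGGCGG was in 55.2% against 46.2% and the CCAAT box, read by NFY, in 44.1% against 38.2%. The words of blood cell regulators were close to their background, with 4.83% against 3.13% for PU.1 (GAGGAAGT), 6.21% against 4.71% for RUNX (TGTGGTT) and 2.07% against 2.64% for AGATAAG, the word of the GATA factors. The same held for STAT (TTCNNNGAA, 6.90% against 7.69%), ISRE (GAAANNGAA, 8.97% against 8.15%), CTCF (AGGGGGC, 14.5% against 12.9%) and YY1 (AAGATGGC, 3.45% against 3.05%). The TATA box, spelled TATAAA, was in 7.59% against 12.6%. The AP-1 word TGACTCA did not differ less. It was in 1 window, 0.690% (0.0175 to 3.78%) against 4.66%, a ratio of 0.148. The overlapped windows were richer in CpG, with a median of 20 per window against 13 in all windows and a median GC content of 59.7% against 56.3%. Overlapped windows with and without a bZIP word had about the same CpG, with medians of 20.5 and 20. Shares were not matched on CpG.

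**Figure D2:**
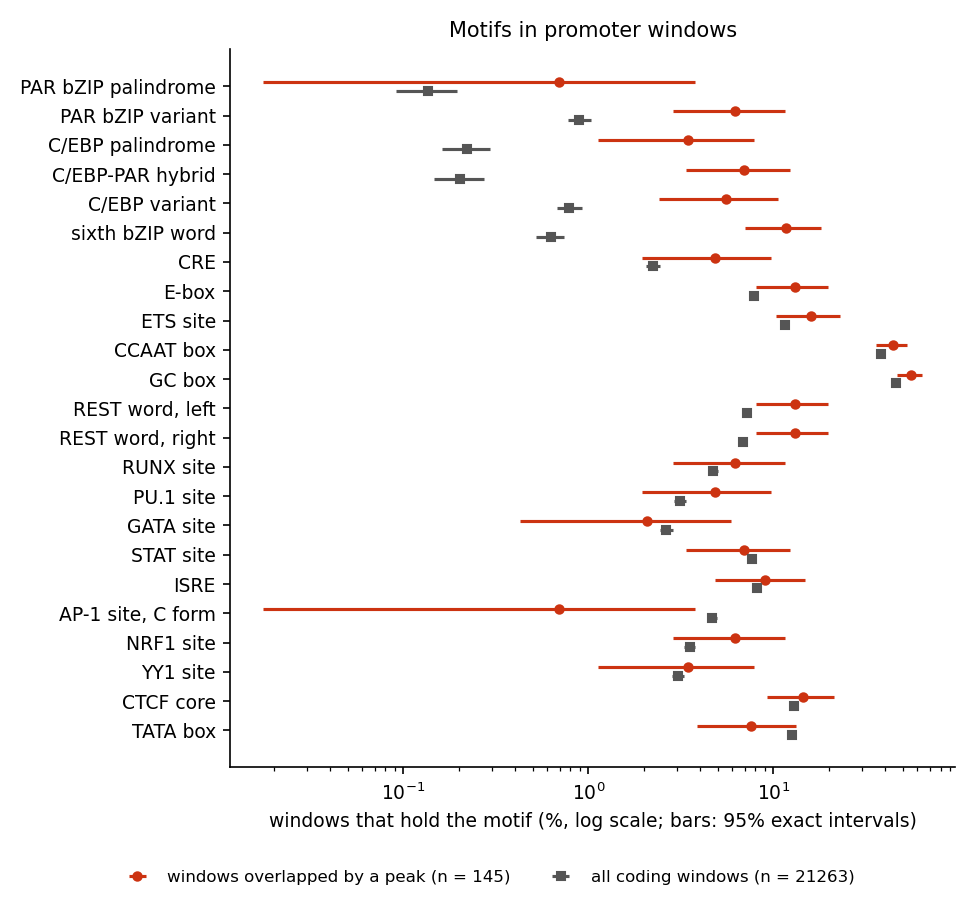
Share of promoter windows that hold each motif (x axis, percent on a log scale) for the 145 windows overlapped by a peak and all 21263 coding windows, with 95% exact intervals as bars. The 4 bZIP words other than the palindrome, and TTGTGTAA (the sixth bZIP word), have intervals that lie to the right of the background, and so do the left and the right REST word. The intervals of the E-box and the GC box lie to the right of the background share but overlap its bar. The interval of the AP-1 word lies to the left of the background.

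The bZIP words stood at the middle of the peaks. Of 33 matches to the 5 words, 27 were within 50 bases of the peak centre, 18 within 20 and 11 within 5, and the median distance was 16 bases. Scaled to the window bases that could be read at each distance, there were 3.07 matches per kb within 50 bases, 0.499 from 50 to 100 bases, 0.0801 from 100 to 200 and 0.0846 from 200 to 500. All coding windows held 0.0763 per kb. The 2 values beyond 100 bases rest on 1 match each, too few to set against that density. The REST words CAGCACC and GGACAGC, described with the neuronal genes, were also denser at the middle, with 1.37 and 0.910 per kb within 50 bases against 0.256 and 0.240 in all windows. The CCAAT box did not follow this pattern, with 2.28 per kb within 50 bases and 1.62 from 50 to 100 against 1.89 in all windows. The GC box was sparser at the middle, with 2.05 per kb within 50 bases and 4.37 from 50 to 100 against 3.40. E-boxes had 0.455 within 50 bases, from only 4 matches, and 0.374 from 50 to 100 against 0.291. Of the blood cell words, RUNX had 0.455 per kb within 50 bases, from only 4 matches, against 0.163 in all windows. PU.1 had 0.114 there, from 1 match, against 0.107, and GATA 0 against 0.0911.

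The middle could be read whole for some peaks. For 67 peaks all of the central 100 bases lay in promoter windows, and 21 of them had 1 of the 5 words there (31.3%, 95% exact interval 20.6 to 43.8%). With TTGTGTAA added it was 29 of 67 (43.3%, 31.2 to 56.0%). The other peaks of these 67 had none of the 6 words in that stretch, which says only that these letters were not there. Clec12a, Hdgf, a growth factor, and Eola1 had 2 of the 5-word matches each. Relative to the listed starts, 31 of the 33 matches were upstream and 2 downstream, from 244 bases before to 10.5 bases after the start with a median of 100 bases before. The windows themselves hold 250 bases before and 50 after a start.

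**Figure D3:**
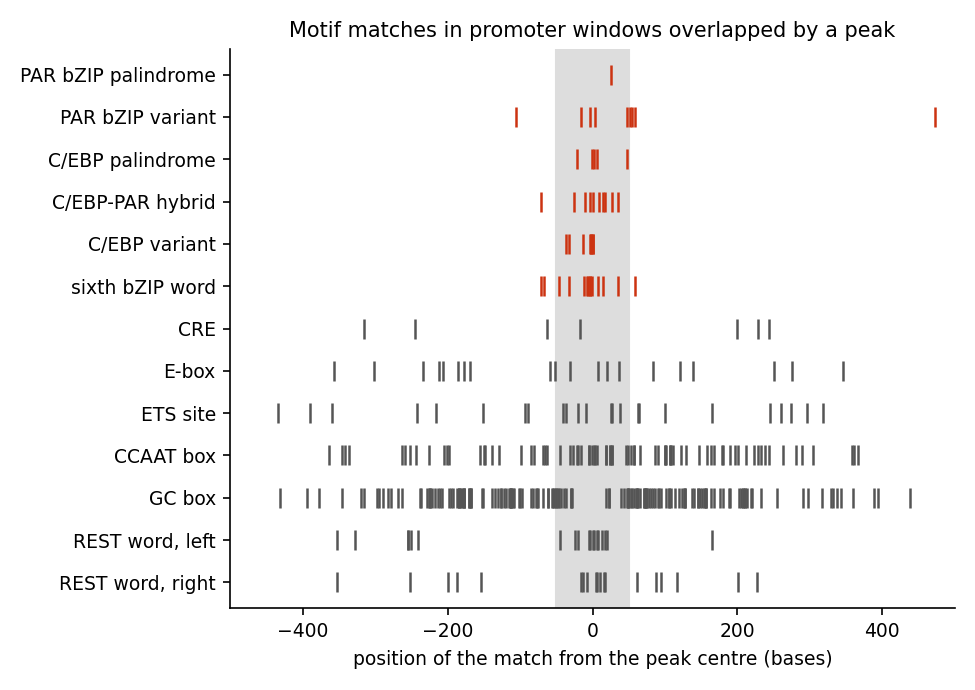
Position of each motif match from the peak centre in bases (x axis) for 13 motifs (rows), 1 tick per match, in promoter windows overlapped by a peak, with the central 100 bases shaded. Matches to the bZIP words (red) gather in the shaded band, 27 of 33 for the 5 words, while GC box and CCAAT box matches (grey) spread over the whole range.

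These central words were not particular to peaks within 1 kb of a gene end. Among the other 2811 peaks, 32 overlapped a coding promoter window of an inner start, and 8 of these had a bZIP word within 50 bases of the centre, next to 27 of the 129 gene-end peaks with a window. Peaks at gene ends also had close neighbours about as often as the rest. Another peak centre lay within 5 kb of 26 of the 342 (7.60%) and of 209 of the 2811 others (7.44%), an odds ratio of 1.02 (Fisher's exact two-sided p = 0.913).

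Circadian clock and PAR bZIP genes had a peak at an end in 4 of 24 genes (16.7%, 95% exact interval 4.74 to 37.4%), beside the 1.73% of all coding genes. The lists here were chosen with earlier results of these data known, so their counts are descriptions. Tef, a close relative of Hlf, had its peak centred 145 bases upstream of its start, and Per1, a clock repressor, 285 bases upstream. The Nr1d2 peak was 487 bases inside the start of that nuclear receptor gene. The Per2 peak was 93 bases outside an end whose strand was not given. The promoter window of Tef held an E-box but none of the 6 bZIP words, and no window was overlapped at Per1, Per2 or Nr1d2. Hlf, Dbp and Nfil3 had no peak within 1 kb of an end.

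Other bZIP genes with a peak were Atf3, Nfe2 and Atf4, 3 of 47 (6.38%, 1.34 to 17.5%). Nfe2, a factor of platelet-forming cells, had its peak 19 bases inside an end without strand, and Atf4, the effector of the integrated stress response, 928 bases inside its start. The Atf3 promoter held a word 9 bases from the peak centre that differs from the PAR palindrome at 1 position. It is shown for its place at the start of a bZIP gene, from RefSeq (GRCm38.p6, mm10), with the word in capitals.
Atf3 (word at chr1:191183336-191183343, plus strand): caatcccaggcTGACGTAAtgctattaata
In the list of endoplasmic reticulum stress and heat shock genes, 2 of 33 (6.06%) had a peak. Besides Atf4 it was Herpud1, which aids the disposal of misfolded proteins, 103 bases upstream of its start.

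Cytokine signalling genes had a peak at an end in 3 of 34 (8.82%, 1.86 to 23.7%). The Il4ra peak was 378 bases inside the start of this interleukin-4 receptor chain, the Ifngr1 peak 429 bases upstream of the start of the interferon gamma receptor chain, and the Tgfbr2 peak 819 bases beyond the stop of the TGF-beta receptor. The granulocyte and monocyte list had 3 of 32 (9.38%). They were Id1, Trib1, a pseudokinase that promotes the breakdown of C/EBP alpha, with its peak 107 bases outside an end without strand, and Itgam, which encodes CD11b, 932 bases inside its start. Of 29 B lymphoid genes 1 had such a peak, Blnk at 99 bases upstream of its start, and of 43 stem and multipotent progenitor genes 1, Meis1. The B lymphoid and stem cell shares, 3.45% and 2.33%, were near the background.

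Genes of cell death, growth and metabolism had 1 or 2 such peaks per list. Birc2, an inhibitor of apoptosis, and Apaf1, the core of the apoptosome, had peaks 287 and 670 bases inside their starts, 2 of 28 genes (7.14%, 95% exact interval 0.877 to 23.5%, beside 1.73% of all coding genes). Cdk4, a kinase of the G1 phase, was the only one of 36 cell cycle genes (2.78%), at 313 bases inside. Spred1, a brake on MAP kinase signalling, was 1 of 20 genes of MAP kinase phosphatases and feedback (5.00%), at 973 bases upstream. Ctsl was 1 of 38 autophagy and lysosome genes (2.63%), at 140 bases inside, and Gstt1 was 1 of 25 xenobiotic and liver genes (4.00%), at 819 bases inside. Ctsl and Gstt1 were also 2 of the promoters with TTGCATAA at the peak centre. Of 68 splicing genes 2 (2.94%) had a peak, Hnrnph3 at 346 bases upstream and Srsf2 at 496 bases inside, and Srsf2 had TTGCGTAA 15 bases from the centre. Of 98 respiratory chain genes 1 (1.02%, 0.0258 to 5.55%) had a peak, Uqcrc1 of complex III at 467 bases upstream. None of 101 ribosomal protein genes had one, which allows up to 3.59% by the exact interval, and none of 48 chromatin regulators, which allows up to 7.40%. The intervals of these lists include the 1.73% of all coding genes. The histone list held 14 older symbols and had 0. By the newer symbols, H2bc4 and H4c14 were 2 of 73 histone genes with a peak, 486 and 123 bases from an end.

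**Figure D4:**
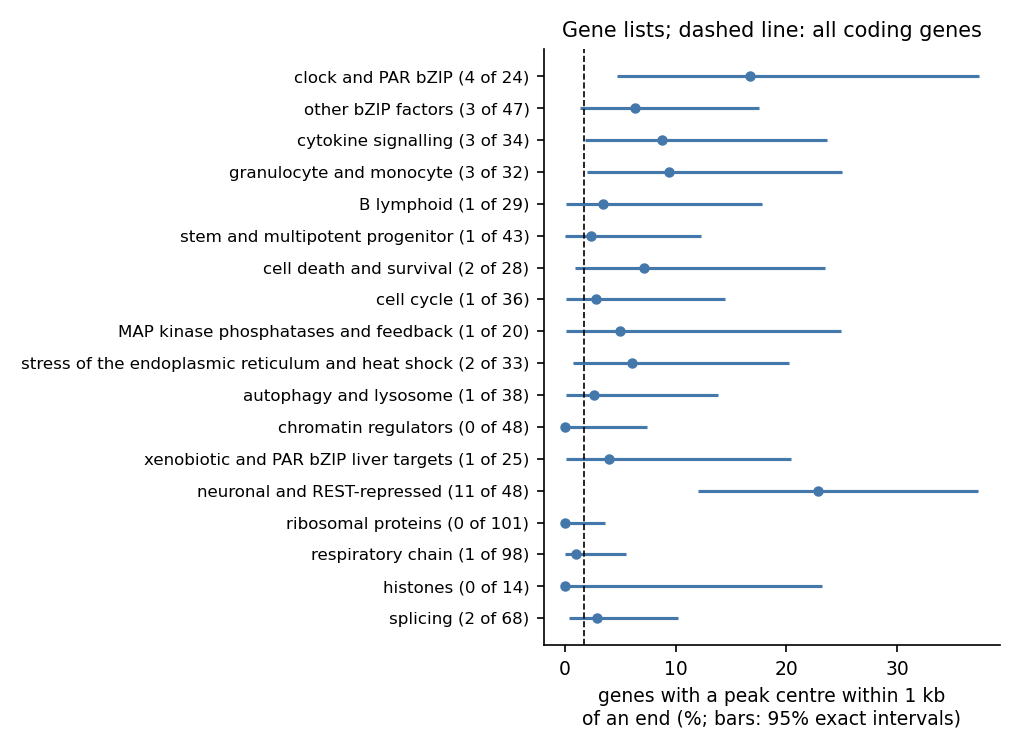
Share of the genes of each of 18 lists (rows) with a peak centre within 1 kb of an end (x axis, percent), with 95% exact intervals as bars. The dashed line is the 1.73% of all coding genes. The bars of the clock, cytokine signalling, granulocyte and monocyte, and neuronal lists lie to its right. All 18 lists were chosen with earlier results of these data known, so their shares are descriptions and not a test of enrichment. The neuronal share of 22.9% cannot be read against the line, since 13 of those genes were known to have a peak when the list was written.

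Some genes of innate immunity and leukocyte adhesion are given next with their values. They were picked out after the values were seen, from no fixed list, so whether such genes had peaks more often than others was not tested. Upstream of their starts were the peaks of Nlrp3, the sensor of the inflammasome, at 78 bases, Nlrc4 at 21, Mlkl, the executor of necroptosis, at 192 and Gch1, which makes a cofactor of nitric oxide synthesis, at 216. Inside their starts were those of Cgas, the sensor of cytosolic DNA, at 241 bases, Slc11a1, a metal transporter of phagosomes, at 54 and Clec12a at 325. A single peak lay 108 bases upstream of Ccl3 and 862 bases inside an end without strand of its neighbour Ccl4, whose bounds overlap those of Ccl3. Genes of NF-kappaB were reached at different ends, Nfkb2 at 401 bases inside its start, and Rela and its inhibitor Nfkbia at 713 and 516 bases beyond their stops. Among integrins, Itgal had a peak 109 bases and Itgb2 751 bases inside an end without strand, and Itgb7 447 bases inside its start.

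Genes of neurons had the largest share of the 18 lists, 11 of 48 (22.9%, 12.0 to 37.3%). This list was written when 13 of its genes were known to have a peak, and 10 of those 13 were among the 11. Of the other 35 genes 1 had a peak at an end, Scn2a, a sodium channel, 792 bases upstream of its start, so the share cannot be read against the 1.73%. The nearest were Lhx3, a homeobox factor of motor neurons and the pituitary, 18 bases upstream of its start, and Unc13a, which primes synaptic vesicles, 44 bases inside. Grin1, an NMDA receptor subunit, Chgb, a granin of secretory vesicles, Bsn, a scaffold of the presynapse, and Cacng2, an auxiliary subunit of AMPA receptors, had peaks 168, 176, 260 and 267 bases inside their starts.

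Many neuronal genes are repressed outside the nervous system by REST, which reads a long element with a left word, CAGCACC, and a right word, GGACAGC. Each word was in 13.1% of overlapped windows, against 7.24% and 6.88% of all. Both in this order on 1 strand with 0 to 14 bases between, a rule set after the data were seen, stood in 5 windows (3.45%, 1.13 to 7.86%) against 18 of 21263 (0.0847%). All 5 are shown, from RefSeq (GRCm38.p6, mm10), because they lie at the centres of peaks with no bZIP word in the window. The capitals mark both words.
Fbll1 (chr11:35799051-35799080, plus strand): gtccagtCAGCACCagGGACAGCtacctca
Unc13a (chr8:71671725-71671754, plus strand): gcttCAGCACCgggggcgcGGACAGCgcct
Lrp11 (chr10:7589817-7589845, minus strand): ggatCAGCACCggcgtgcGGACAGCggct
Lhx3 (chr2:26208268-26208297, minus strand): cctccttCAGCACCgcGGACAGCgccagcc
Hrh3 (chr2:180104569-180104598, plus strand): gcgcgggCAGCACCacGGACAGCgccgcgt
The middle of the pair lay from 6.5 bases (Lrp11) to 20 bases (Hrh3) from the peak centre. Hrh3 encodes the histamine H3 receptor of neurons and Fbll1 a relative of the nucleolar protein fibrillarin. Fbll1, Lrp11 and Hrh3 were named after their values were seen. The words are 2 bases apart at Fbll1, Lhx3 and Hrh3, 7 at Lrp11 and 8 at Unc13a.

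Of the 129 gene-end peaks over a window, 5 had the REST pair, 30 had 1 of the 5 bZIP words and 0 had both. With so few peaks the 0 does not show that the words avoid each other. The 5 peaks with the pair were all among the first 315 lines of the list, whose order the sources used here do not explain. The lines of the bZIP peaks ran from 187 to 2976. Both REST words, in any order and at any spacing, stood at 7 peaks, 6 of them in the first 315 lines. The other was the peak of Tmem198 and Chpf at line 808. Its left word was 13.5 and its nearest right word 4.5 bases from the centre. The rule, applied within each window, did not count it as a pair. In the first 315 lines 17 gene-end peaks overlapped a window, and 29.4% of them (10.3 to 56.0%) had the REST pair and 17.6% (3.80 to 43.4%) a bZIP word. Among the 112 of the later lines it was 0% (0 to 3.24%) and 24.1% (16.5 to 33.1%). Neuronal genes at these first lines were known before the search, so the pair is not independent support for their place. Whether REST, HLF or another protein was precipitated at these sites was not tested. Gene-end peaks as a whole showed no such gathering, with 27 to 44 in each of 10 blocks of lines.

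**Figure D5:**
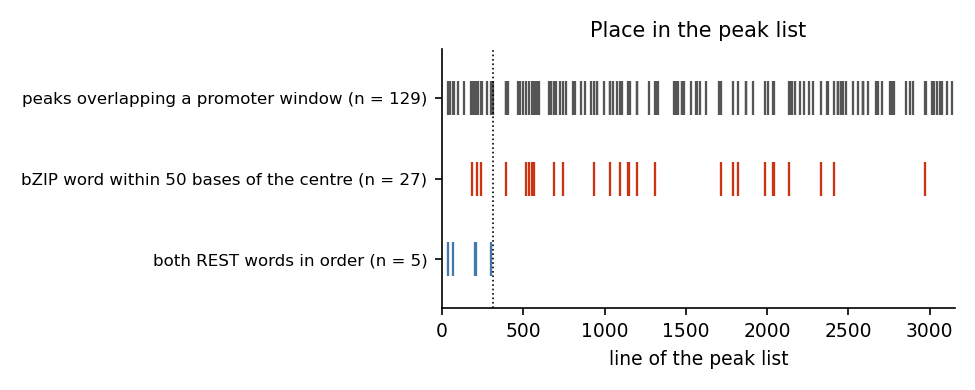
Place in the peak list (x axis, line number) of the 129 gene-end peaks that overlap a promoter window, the 27 with 1 of the 5 bZIP words within 50 bases of the centre, and the 5 with both REST words in order, 1 tick per peak. The dotted line follows line 315, and all 5 peaks counted with the REST words in order lie before it. A peak at line 808 with both words near its centre was not counted as a pair and has no tick in that row.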

How the data were processed

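Anti-FLAG ChIP-seq of LSK cells was deposited with 1 library per arm. Per the submitters' processing notes, the tools were MACS2, Bowtie2 and bedtools; mm10 (GRCm38) was the build. The role, version and threshold of each, and any use of the GFP library, were not given in the sources used here. As the authors deposited it, the FLAG-HLF file holds 3153 intervals of 400 bases and no score or other value, so depth is unknown. The fixed width and the line order are not explained in those sources.

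Distances ran from the peak centre (start plus 200) to the closest coding gene bound in the RefSeq table of GRCm38.p6 (49997 genes, 21900 coding, 21887 on placed chromosomes). Strand came from the RefSeq promoter windows. It was missing for 4395 genes. Motifs were counted in windows as exact words on both strands, the PAR bZIP palindrome also with 1 mismatch, and a genome sequence was not used here. Shares have 95% Clopper-Pearson intervals, which cover counting error only. Tests were the two-sided exact binomial test at a chance of 0.5 and Fisher's exact test, with a threshold of 0.05, run across peaks of 1 list. The word search and the distances were tested on simulated data. Software was scipy 1.17.1, pandas 2.3.3, numpy 2.4.6 and matplotlib 3.10.9 under Python 3.11.15.

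The gene-end peaks, the 18 gene lists and the 22 motifs were chosen with earlier results of these data known. Named genes are up to 6 per list with the nearest peaks, genes with 2 peaks, genes with the PAR bZIP palindrome, the 10 smallest distances (1 of these genes is not reported here), 3 on each side of the limit, the 10 pairs of starts with the smallest summed distance from a shared peak, and Hlf, Dbp, Tef and Nfil3. Alternatives varied the limit, the windows, the words, the genes and the lines taken.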

Additional observations from a re-analysis of the deposited data

How the results depend on the processing

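The 7 results were recomputed in 24 alternatives, and in 15 neither the direction nor the call changed, or the value stayed within its interval or 1.5 times the count. The share of starts over stops kept both in every alternative run, from 67.8% (peaks without strand counted as stops, added after the data were seen) to 88.8% (limit of 500 bases). The side of the end did not hold still. Outside the gene lay 56.8% at a limit of 500 bases (exact binomial p = 0.0472), past the threshold, and 49.9% at 2000 bases (p = 1), the other way. The odds ratio for close neighbours was 0.862 with neighbours within 10 kb (Fisher's exact p = 0.469) and 0.971 against the peaks up to 20 kb from an end (p = 1), both turned from 1.02 and neither past the threshold. The limit sets the counts, with 541 peaks at 2000 bases, and 248 genes at 500 and 611 at 2000 bases. The share of windows with a bZIP word was 31.7% with TTGTGTAA, a word added after the data were seen, and 20.2 to 27.8% under the other changes of windows, lines and counting. No paired analysis was possible because each arm had 1 library and 1 list was analysed, and no replicate could be left out for the same reason. With no scores, a stricter peak threshold could not be tried. Sequence was read for 129 of 342 peaks, all near listed starts, so the stop peaks are largely unread.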
